A study of Mus musculus with 6 samples.

Results

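The 10 genes of the class I antigen presentation pathway examined here were found by symbol among the 24034 genes of a liver expression table, and all 10 were present: the heavy chains H2-K1 and H2-D1, the light chain B2m, the peptide transporter genes Tap1 and Tap2, the loading factor Tapbp, the immunoproteasome subunits Psmb8, Psmb9 and Psmb10, and the regulator Nlrc5. RNA was sequenced from the livers of C57BL/6 mice aged 25 weeks. In the HO group (3 libraries) the genotype label was lncenc13A/3A, homozygous for an allele of Lncenc1, a gene of a long non-coding RNA, and in the WT group (3 libraries) it was lncenc1wt/wt. The comparison asked how the adult liver differed in the mutant. What the allele changes in the gene, the substrain and the sex of the animals are not given in the labels, nor do they say whether each library is a different animal, so p-values measure only the spread between these samples, which may be technical.

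Class I molecules carry peptides from inside a cell to its surface, where CD8 T cells read them. The peptides are cut by the proteasome, whose catalytic subunits can be exchanged for the interferon-inducible immunosubunits, are carried into the endoplasmic reticulum by the TAP transporter, and are loaded onto a heavy chain paired with beta-2-microglobulin with the help of tapasin. NLRC5 is a transactivator that acts at the promoters of many of these genes, and in liver both hepatocytes and the non-parenchymal cells present antigen. In whole tissue, fewer cells of a type and less RNA per cell cannot be told apart.

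Expression was given as FPKM, fragments scaled by transcript length and by the mapped fragments of a library. The libraries summed to between 495570 and 518220 FPKM, and the spacing of their low values put their depths between 19099000 and 24604000 read equivalents. At that depth the member with the fewest reads, Psmb9, held about 551 to 781 read equivalents and B2m 26252 to 35172. Alb, the defining hepatocyte transcript, stood between 25339 and 29603 FPKM in HO and between 31203 and 33315 FPKM in WT, with no overlap. Of the 13250 genes whose mean reached 0.5 FPKM, 151 passed limma's test at a Benjamini-Hochberg adjusted p under 0.05, which is 1.14% of those tested, with 43 (0.325%) higher and 108 (0.815%) lower in HO. The middle of all tested genes lay at a log2 change of -0.09, and scaling by the median of ratios between libraries moved it to 0.01 and the split of calls to 70 higher and 64 lower. Log2 changes below are HO minus WT on the log2(FPKM + 0.5) scale and are to be read against that -0.09.

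None of the 10 pathway genes passed the threshold in either direction (limma), and 2 of them, Nlrc5 and Tap1, had an unadjusted p under 0.05. At the unadjusted threshold 21.5% of all tested genes passed, 5.01% higher and 16.5% lower in HO. The regulator and the transporter gene were the only members whose 3 HO values all exceeded the 3 WT values, while the heavy chain H2-D1 was the only one whose HO values all lay below. Groups that did not overlap were found for 27.9% of all tested genes, 6.42% higher and 21.4% lower in HO, so 3 of 10 members is near the background. The median log2 change of the 10 members was -0.07, with 4 positive and 6 negative. With median-of-ratios scaling it was 0.03, with 6 positive and 4 negative.

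**Figure D1:**
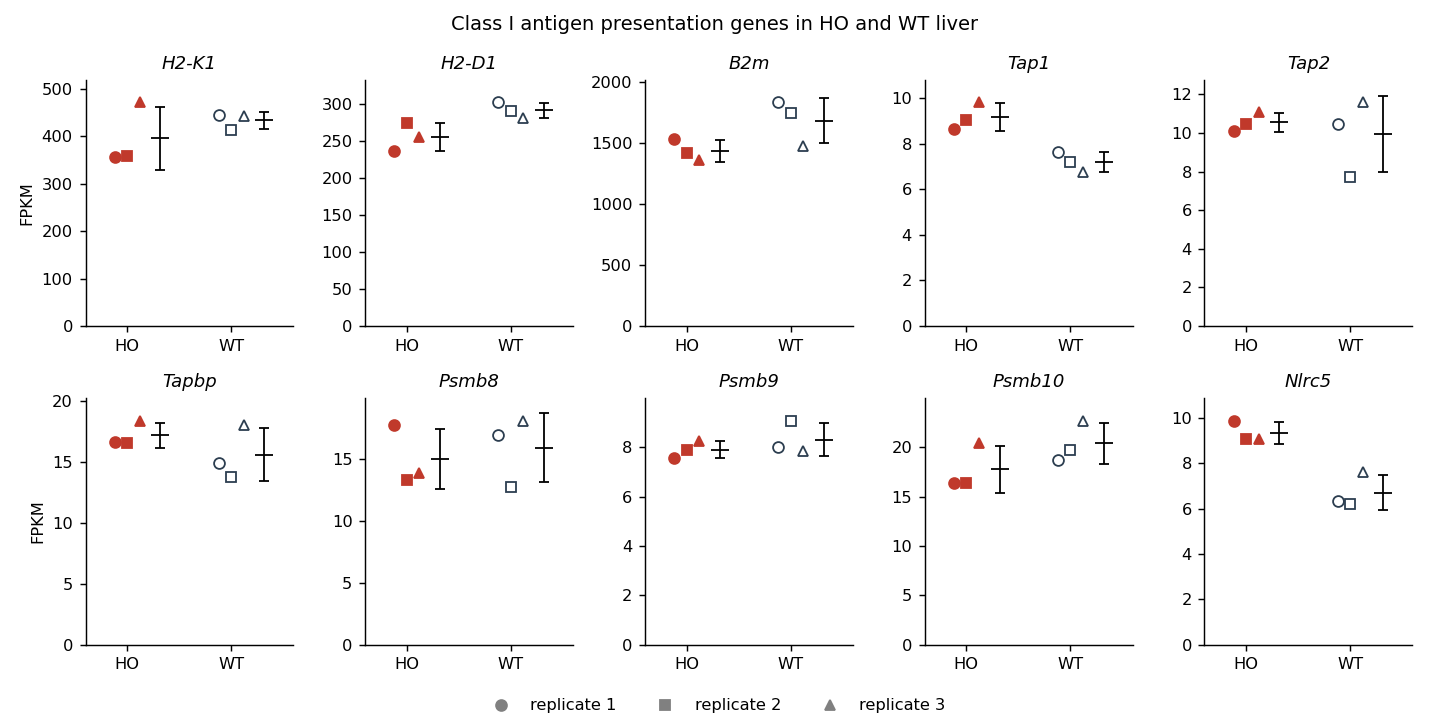
FPKM (y axis, from 0) of the 10 class I pathway genes in the 3 HO and 3 WT libraries; points are libraries, with a shape for each replicate number, and bars are the mean ± SD. The HO points lie above all WT points for Tap1 and Nlrc5 and below them for H2-D1, and overlap them for the others.

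The class I heavy and light chains were the most abundant members, and all were somewhat lower on average in HO without passing the test. The size depended on the scaling: with median-of-ratios scaling the log2 changes were -0.03 for H2-K1, -0.08 for H2-D1 and -0.11 for B2m, and with quantile normalization -0.18, -0.11 and -0.45, in the same order of genes. B2m, which encodes beta-2-microglobulin, had 1533, 1419 and 1357 FPKM in the HO libraries and 1833, 1741 and 1473 FPKM in the WT libraries. The highest HO library exceeded the lowest WT library, so the groups overlapped. The log2 change was -0.22 ± 0.11 (SE, limma adjusted p = 0.304), with a 95% interval of -0.49 to 0.04. B2m ranked 43rd of all genes by mean FPKM and is encoded on chromosome 2 from 122147686 to 122153083 (mm10).

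H2-D1, a classical heavy chain, had 235.8, 274.6 and 255.9 FPKM in HO against 302.4, 290.03 and 280.99 FPKM in WT. All HO values lay below all WT values, and the gap between the nearest libraries was small beside the differences within each group. The log2 change was -0.19 ± 0.09 (SE, limma adjusted p = 0.266), and the groups overlapped once libraries were scaled by the median of ratios. H2-K1, the other classical heavy chain, had 356.0, 358.1 and 471.3 FPKM in HO against 444.4, 412.8 and 441.4 FPKM in WT. HO replicate 3 was the highest library of all and the other HO libraries were the lowest, which made the SD 66.0 FPKM in HO and 17.4 FPKM in WT. The log2 change of H2-K1 was -0.14 ± 0.13 (SE, limma adjusted p = 0.549). Without HO replicate 3 it was -0.28, and it still did not pass.

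In both groups together the order of levels per length ran from B2m (mean 1559 FPKM) to H2-K1 (414.0 FPKM) and H2-D1 (273.3 FPKM), with no overlap over the 6 libraries between these neighbours. Psmb10 followed at 19.1 FPKM, 14.3 times lower than H2-D1, and overlapped with Tapbp (16.4 FPKM), which overlapped with Psmb8 (15.4 FPKM). Every Tap2 value lay below every Psmb8 value, and Tap2 (10.2 FPKM), Tap1 (8.18 FPKM), Psmb9 (8.11 FPKM) and Nlrc5 (8.02 FPKM) each overlapped with the next.

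H2-K1 and H2-D1 lie 1.26 Mb apart on chromosome 17, from 33996017 to 34000347 on the minus strand and from 35262730 to 35267499 on the plus strand. As members of a family of related genes they can share reads. Of the distinct 75-base stretches in annotated H2-K1 transcripts, 3.10% also occurred in transcripts of other genes, H2-Q10 foremost, and of those of H2-D1 5.40%, H2-Q1 foremost. The pair shared 0.642% of the H2-K1 stretches and 0.926% of the H2-D1 stretches. Reads that match with a mismatch were not considered, so both values remain uncertain in part. In the orientation of the transcripts, no such stretch was shared by B2m, Tap1, Tap2, Psmb8, Psmb9, Psmb10 or Nlrc5. Only that orientation was compared, so overlaps with genes on the opposite strand, given further on, were not counted.

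Promoter sequence from RefSeq (GRCm38.p6, 250 bases before to 50 after the start) was matched for 8 of the 10 members. The promoters of the chain genes are shown because class I heavy chains and B2m are known to be read from a shared set of elements, and H2-Q10 is shown beside them as the liver-secreted relative whose values are given further on. Capitals mark 5 searched motifs on either strand: the kappaB form (GGG, any 5 bases, CCC), the interferon-stimulated response element (GAAA, any 2 bases, GAAA), its class I form (GAA, any 2 bases, GAAA), which was chosen after these promoters were seen, the cyclic AMP element core TGACG and the CCAAT box. The windows are chr17:34000298-34000597 on the minus strand for H2-K1, and on the plus strand chr17:35262844-35263143 for H2-D1, chr2:122147437-122147736 for B2m, chr17:35469839-35470138 for H2-Q10 and chr17:34187306-34187605 for Tap1.
H2-K1: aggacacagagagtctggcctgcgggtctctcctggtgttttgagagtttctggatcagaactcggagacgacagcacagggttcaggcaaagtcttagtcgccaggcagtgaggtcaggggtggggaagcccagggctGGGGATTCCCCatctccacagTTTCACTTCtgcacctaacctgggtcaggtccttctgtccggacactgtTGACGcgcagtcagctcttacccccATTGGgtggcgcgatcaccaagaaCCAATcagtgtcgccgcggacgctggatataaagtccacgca
H2-D1: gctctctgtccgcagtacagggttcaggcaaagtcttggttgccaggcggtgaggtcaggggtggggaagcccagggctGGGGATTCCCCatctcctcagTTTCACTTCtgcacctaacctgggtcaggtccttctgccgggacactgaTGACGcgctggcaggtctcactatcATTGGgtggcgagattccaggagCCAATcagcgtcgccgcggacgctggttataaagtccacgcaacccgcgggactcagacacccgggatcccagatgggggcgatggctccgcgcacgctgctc
B2m: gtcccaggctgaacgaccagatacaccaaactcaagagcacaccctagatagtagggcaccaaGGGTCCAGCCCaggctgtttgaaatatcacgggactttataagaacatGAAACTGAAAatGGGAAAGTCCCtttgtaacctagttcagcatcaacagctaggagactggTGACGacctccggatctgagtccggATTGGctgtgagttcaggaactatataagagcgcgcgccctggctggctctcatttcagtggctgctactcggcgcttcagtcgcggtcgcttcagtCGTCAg
H2-Q10: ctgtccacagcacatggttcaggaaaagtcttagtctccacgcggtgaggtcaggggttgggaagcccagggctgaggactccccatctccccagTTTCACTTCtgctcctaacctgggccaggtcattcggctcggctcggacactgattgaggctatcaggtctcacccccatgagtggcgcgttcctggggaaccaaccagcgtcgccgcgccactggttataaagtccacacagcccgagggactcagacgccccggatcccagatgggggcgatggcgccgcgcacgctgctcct
Tap1: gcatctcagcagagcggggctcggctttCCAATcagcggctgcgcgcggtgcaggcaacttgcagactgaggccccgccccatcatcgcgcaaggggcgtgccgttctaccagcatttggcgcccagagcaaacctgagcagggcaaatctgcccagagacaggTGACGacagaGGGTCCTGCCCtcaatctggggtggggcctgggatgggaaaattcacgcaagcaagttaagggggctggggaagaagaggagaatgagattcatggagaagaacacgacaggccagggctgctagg

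The H2-K1 and H2-D1 windows, identical at 88.3% of 239 aligned bases, held the same motifs in the same order: 1 kappaB form (GGGGATTCCCC in both), 1 class I response element, 1 TGACG and 2 CCAAT boxes. H2-Q10, identical to H2-D1 at 87.3% of 291 aligned bases, held the class I response element and no match to the other 4. B2m held 2 kappaB forms, a GAAACTGAAA match to the response element, 2 TGACG matches and 1 CCAAT box. Among 32851 RefSeq promoter windows of this length, 14.0% held the kappaB form, 3.44% the response element, 7.52% its class I form, 20.8% TGACG and 37.4% a CCAAT box, so the short motifs are common, and no match marked in the printed windows overlaps another. Of 2 further motifs searched, the GAS form (TTC, any 3 bases, GAA, in 8.30% of windows) matched only in Psmb8 among the 8 members with a window, and the TATA core TATAAA (13.6% of windows) matched in H2-K1, H2-D1, B2m, H2-Q10 and Psmb8; neither is in capitals. A match is a description of letters and not of binding.

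Peptide transport and loading genes all had positive log2 changes in HO, and none passed the threshold. Groups were apart for 1 of 3, higher in HO, where 6.42% of all tested genes were apart in that direction. Tap1, the first chain of the TAP peptide transporter, had 8.62, 9.05 and 9.82 FPKM in HO against 7.64, 7.20 and 6.77 FPKM in WT. Every HO library exceeded every WT library. The log2 change was 0.33 ± 0.10 (SE, limma adjusted p = 0.134), a 1.27-fold difference of means, with a 95% interval of 0.09 to 0.57. Tap2, the second chain, had 10.12, 10.47 and 11.10 FPKM in HO against 10.5, 7.74 and 11.6 FPKM in WT. WT replicate 2 stood below the rest and the other libraries were alike, and without it the log2 change of 0.10 ± 0.15 (SE, limma adjusted p = 0.743) turned to -0.06. Tapbp encodes tapasin, which bridges TAP and the empty class I molecule, and had 16.6, 16.5 and 18.4 FPKM in HO against 14.9, 13.8 and 18.0 FPKM in WT. The groups overlapped through WT replicate 3, and the log2 change was 0.14 ± 0.12 (SE, limma adjusted p = 0.528). With median-of-ratios scaling it was 0.25 and the groups were apart, higher in HO (limma adjusted p = 0.305).

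Psmb9, Tap1, Psmb8 and Tap2 lie in a cluster of 34.3 kb on chromosome 17, where Psmb9 (34181987 to 34187764, minus strand) and Tap1 (34187553 to 34197225, plus strand) are transcribed away from each other. Their RefSeq promoter windows share 275 of 300 bases, so the Tap1 sequence printed above is nearly all of the Psmb9 promoter read from the other strand. It held 1 kappaB form, 1 TGACG and 1 CCAAT box. The log2 change of Psmb9 was -0.07 and that of Tap1 0.33, and the difference between the genes was not tested. Annotated exons of the pair overlap on opposite strands over 212 bases, and the labels do not say whether reads were assigned by strand. Tapbp also shares exonic bases with Zbtb22 on its own strand, and Tap2, Psmb8, Tapbp and Nlrc5 with non-coding genes on the opposite strand.

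The immunoproteasome subunits had small negative log2 changes, and none passed. Psmb8 encodes beta5i, a catalytic subunit that replaces beta5, and had 17.7, 13.3 and 13.8 FPKM in HO against 16.9, 12.7 and 18.1 FPKM in WT. The libraries spread from 13.3 to 17.7 FPKM within HO and from 12.7 to 18.1 FPKM within WT, more than the group means differed (14.9 ± 2.44 in HO and 15.9 ± 2.81 in WT, SD, n = 3 each). Psmb9, for beta1i, had 7.56, 7.91 and 8.23 FPKM in HO against 7.99, 9.08 and 7.86 FPKM in WT, which overlapped. Psmb10, for beta2i, had 16.4, 16.4 and 20.5 FPKM in HO against 18.8, 19.7 and 22.7 FPKM in WT, where the third HO library reached into the WT range. The log2 changes were -0.08 ± 0.17 for Psmb8, -0.07 ± 0.10 for Psmb9 and -0.20 ± 0.12 for Psmb10 (SE, limma adjusted p = 0.814, 0.747 and 0.406), and with median-of-ratios scaling those of Psmb8 and Psmb9 turned to 0.03 and 0.04. The 95% intervals, -0.47 to 0.31 for Psmb8, -0.31 to 0.17 for Psmb9 and -0.49 to 0.10 for Psmb10, all include 0.

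Nlrc5 had the largest change and the smallest p of the 10 members. It had 9.88, 9.05 and 9.05 FPKM in HO against 6.32, 6.19 and 7.59 FPKM in WT. The lowest HO library stood clear of the highest WT library, and WT replicate 3 was the nearest to HO. The means were 9.33 ± 0.478 FPKM in HO and 6.70 ± 0.773 FPKM in WT (SD, n = 3 each), 1.39-fold apart, with 0.45 ± 0.11 on the log2 scale (SE, limma adjusted p = 0.0917) and a 95% interval of 0.19 to 0.72. It passed the threshold in 1 of 15 alternative fits, that with array weights (adjusted p = 0.0436), in which 7.10% of all genes passed, and the adjusted p ranged up to 0.268 in the others. Nlrc5 lies on chromosome 8 from 94434356 to 94527272. The genes that NLRC5 is known to activate include H2-K1, H2-D1, B2m, Psmb9 and Tap1. H2-K1, H2-D1 and B2m had negative log2 changes and Tap1 a positive one. Psmb9 was at -0.07, near the -0.09 of all tested genes, and at 0.04 with median-of-ratios scaling. A link between these changes and that of Nlrc5 was not tested.

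**Figure D2:**
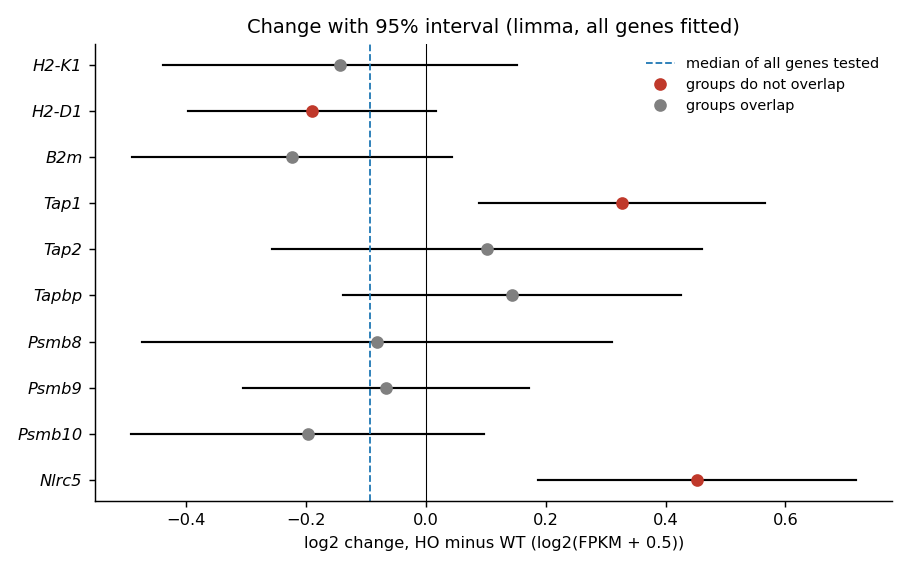
Log2 change, HO minus WT (x axis), of each class I pathway gene with its 95% interval from the limma fit over all genes; red points mark genes whose groups do not overlap, and the dashed line is the median of all tested genes at -0.09. The intervals of Nlrc5 and Tap1 lie above 0 before adjustment over all genes, and the others include it.

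Ratios within a library do not depend on how the library was scaled, and none of 6 passed a test of the difference between the groups. Psmb8 over Psmb5, the constitutive subunit it replaces, was 0.207 ± 0.0291 in HO and 0.186 ± 0.0392 in WT (SD, n = 3 each). Psmb9 over Psmb6 was 0.0676 ± 0.00406 in HO and 0.0632 ± 0.00220 in WT, and Psmb10 over Psmb7 was 0.233 ± 0.0307 in HO and 0.234 ± 0.0383 in WT. In each pair the constitutive transcript was several times the more abundant. Tap1 over Tap2 was 0.852, 0.864 and 0.885 in the HO libraries and 0.729, 0.930 and 0.583 in the WT libraries, close together in HO and widely spread in WT. Heavy over light chain was 0.277 ± 0.0615 in HO and 0.260 ± 0.0346 in WT for H2-K1, and 0.179 ± 0.0217 in HO and 0.174 ± 0.0144 in WT for H2-D1. The exact two-sided permutation p was 0.2 for Psmb9 over Psmb6, the smallest of the 6, and 0.9 for each after Benjamini-Hochberg adjustment over the 6. With 3 libraries against 3 this test cannot go below 0.1, so it could not have passed.

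**Figure D3:**
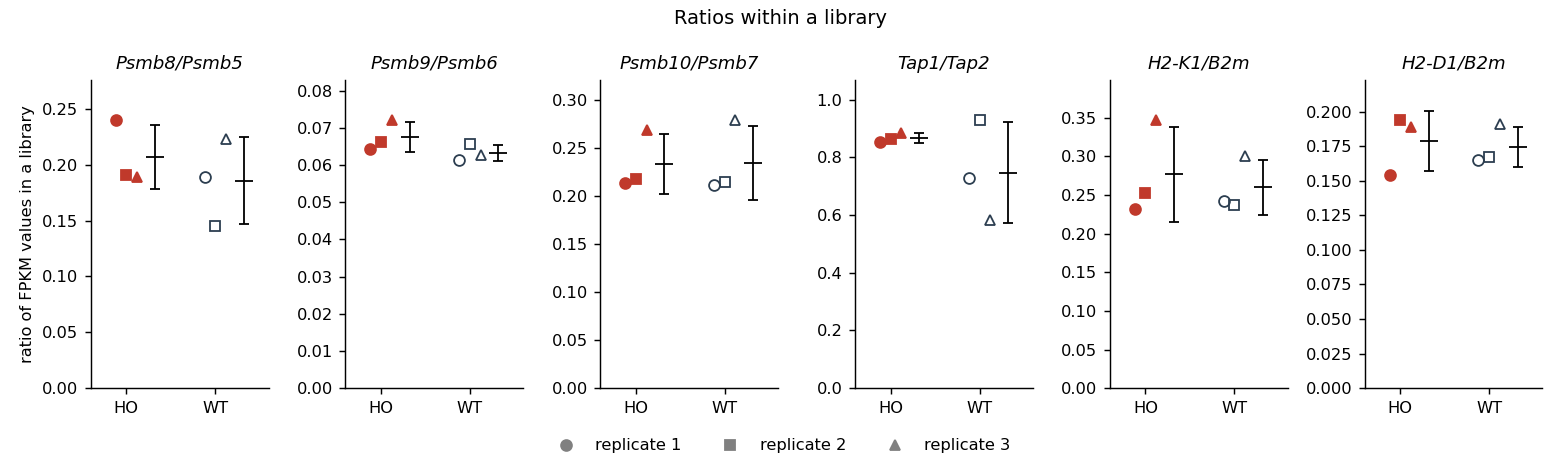
Ratio of FPKM values of 2 genes in the same library (y axis, from 0) for 6 pairs in the 3 HO and 3 WT libraries, with the mean ± SD. The groups overlap in every pair, and the Tap1/Tap2 ratio spans 0.583 to 0.930 in WT and 0.852 to 0.885 in HO.

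Around the members, 94 further genes of the pathway and its neighbours were followed in 8 lists, of which 84 could be tested and 1, Raet1e, passed, a share near the 1.14% of all tested genes. Most genes had a negative log2 change in this fit, 8554 of the 13250 tested, and the sign counts of the lists are to be read against that. Raet1e is a class I-like ligand of the activating receptor NKG2D and lies on chromosome 10 from 22158569 to 22374139. It had 1.01, 1.33 and 1.119 FPKM in HO against 3.07, 3.49 and 3.11 FPKM in WT. The groups lay far apart, and the log2 change was -1.17 ± 0.13 (SE, limma adjusted p = 0.0245). It was called in 10 of 15 alternative fits. The call was lost without HO replicate 3, WT replicate 1 or WT replicate 2 (adjusted p = 0.0624, 0.0969 and 0.107). Of the 75-base stretches in its transcripts 34.2% also occurred in Raet1d or H60b, so its level is uncertain.

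Raet1e belongs to the class I-like genes outside the H2 locus, of which 6 were tested: all 6 had negative log2 changes with a median of -0.48, 4 of them with groups apart (lower in HO, background 21.4%), and with median-of-ratios scaling 1 of the 6 turned positive. Cd1d1, which presents lipids to NKT cells, had 91.8, 81.0 and 99.0 FPKM in HO against 142.5, 134.0 and 128.8 FPKM in WT. The lowest WT library stood well above the highest HO library, and the change fell just short of the threshold (log2 change -0.58 ± 0.10, SE, limma adjusted p = 0.0503). It passed in 3 of 15 alternative fits. Fcgrt, the neonatal Fc receptor chain that binds IgG and albumin, had 71.9 ± 6.38 FPKM in HO and 93.7 ± 3.01 FPKM in WT (SD, n = 3 each, limma adjusted p = 0.0870). Mr1, which presents vitamin metabolites to MAIT cells, had 0.838 ± 0.255 FPKM in HO and 1.52 ± 0.106 FPKM in WT (limma adjusted p = 0.111).

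Non-classical class I genes of the H2 locus followed the same sign, with 10 of 10 tested negative and a median of -0.25. None passed the threshold, and 2 had an unadjusted p under 0.05 (limma), both lower in HO. At that unadjusted threshold 16.5% of all tested genes were lower in HO. With median-of-ratios scaling 3 of the 10 were positive. H2-Q10, a class I molecule that mouse liver secretes and whose promoter is printed above, had 913.2, 880.9 and 1125 FPKM in HO against 1473, 1408 and 1270 FPKM in WT. It was second in level only to B2m among the class I genes named here, and all HO values lay below all WT values (log2 change -0.51 ± 0.12, SE, limma adjusted p = 0.0868). Of its 75-base stretches 12.5% occurred in other genes. H2-Q1 had 0.840, 0.827 and 1.41 FPKM in HO against 4.22, 2.91 and 2.49 FPKM in WT, with -1.28 ± 0.23 on the log2 scale (SE, limma adjusted p = 0.0526), and shared 10.9% of its stretches. H2-T23, which encodes Qa-1, was at 104.3 ± 12.1 FPKM in HO and 113.9 ± 3.09 FPKM in WT (limma adjusted p = 0.497).

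Between the outermost members on chromosome 17 (33915899 to 35267499, 1.35 Mb) 66 other genes were tested, with a median log2 change of -0.14, 2 called higher and 1 lower in HO, where 0.325% of all tested genes were called higher and 0.815% lower. The gene called lower was H2-K2, a pseudogene in the annotation that was singled out after its values were seen. It had 3.76, 4.07 and 4.07 FPKM in HO against 9.17, 7.93 and 7.28 FPKM in WT (log2 change -0.95 ± 0.12, SE, limma adjusted p = 0.0284), and was called in 9 of 15 alternative fits, not without HO replicate 2 (adjusted p = 0.0742), HO replicate 3 (0.0701), WT replicate 1 (0.108) or WT replicate 2 (0.118). Its transcripts shared no 75-base stretch with H2-K1 and 1.96% of them with H2-D1. The genes called higher were C4a, a complement component, and Cyp21a1, the steroid 21-hydroxylase. Stretches that these 2 share with other genes were not counted, so their levels may hold reads of similar genes. Cyp21a1 was called in all 15 alternative fits, and C4a in 12, not without HO replicate 3 (adjusted p = 0.0536), WT replicate 1 (0.0933) or WT replicate 2 (0.0801).

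The constitutive proteasome core stood lower in HO by a small amount: 13 of 14 tested subunits had negative log2 changes with a median of -0.18, against -0.09 for all genes, and none passed (6 at an unadjusted p under 0.05, limma, against 16.5% of all tested genes at that threshold and lower in HO). With median-of-ratios scaling 9 of the 14 stayed negative, with a median of -0.07. Psmb5, the beta5 subunit with chymotrypsin-like activity, had 73.9, 69.4 and 73.2 FPKM in HO against 89.1, 87.8 and 81.0 FPKM in WT, with no overlap (log2 change -0.25 ± 0.08, SE, limma adjusted p = 0.141). Psmb2 was at 47.5 ± 1.59 FPKM in HO and 59.0 ± 3.98 FPKM in WT, Psma7 at 53.5 ± 1.03 FPKM in HO and 64.6 ± 4.41 FPKM in WT (limma adjusted p = 0.110 and 0.138). Groups were apart for 10 of the 14, all lower in HO, where 21.4% of all tested genes were apart in that direction. Of 7 activator and assembly genes, none passed and 1 had an unadjusted p under 0.05 (limma), and the median was -0.07, or 0.05 with median-of-ratios scaling. That gene, Psme1, encodes a subunit of the interferon-inducible PA28 activator and had 35.4, 33.9 and 39.7 FPKM in HO against 56.6, 49.1 and 39.6 FPKM in WT, with WT replicate 3 at the HO level (limma adjusted p = 0.173).

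Most chaperones and trimming enzymes of peptide loading pointed the other way, with 7 of 9 positive and a median of 0.16. Tapbpl (log2 change -0.23) and Lnpep (-0.02) were negative. None passed the threshold, and 2 had an unadjusted p under 0.05 (limma), both higher in HO. At that threshold 5.01% of all tested genes were higher in HO. Ganab, the glucosidase that prepares glycoproteins for calnexin, had 68.6 ± 2.92 FPKM in HO and 57.2 ± 5.65 FPKM in WT, and Uggt1, which returns unfolded glycoproteins to that cycle, 12.7 ± 1.29 FPKM in HO and 10.15 ± 1.05 FPKM in WT (SD, n = 3 each, limma adjusted p = 0.180 and 0.191). Both had groups apart, among 3 in the list, all higher in HO (background 6.42%). Canx, which encodes calnexin, was at 117.9 ± 9.53 FPKM in HO and 101.4 ± 6.81 FPKM in WT, with overlap (limma adjusted p = 0.249).

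**Figure D4:**
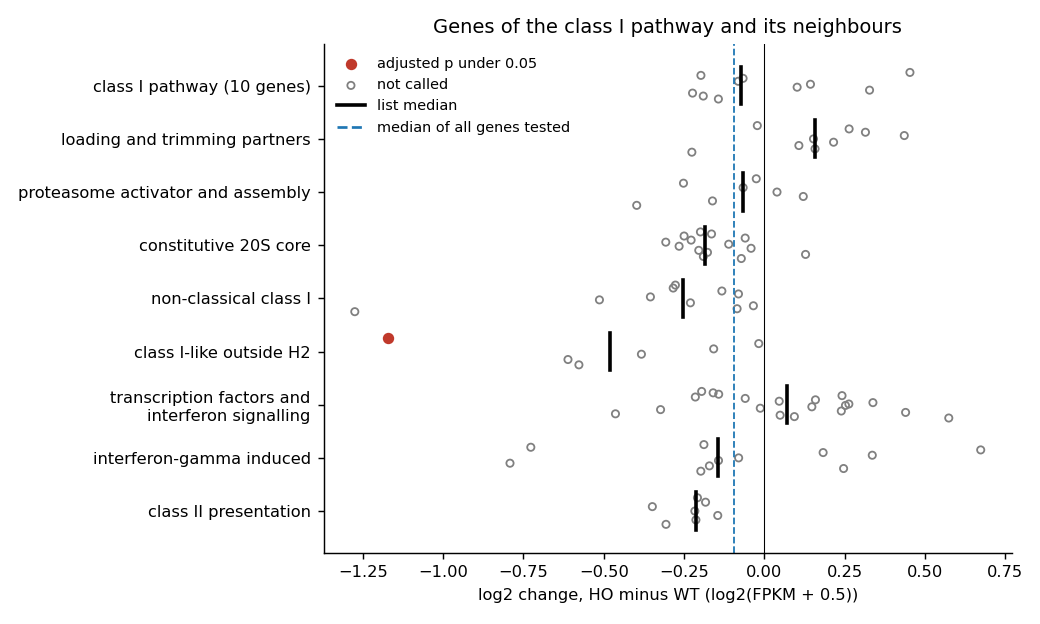
Log2 change, HO minus WT (x axis), of each tested gene in the class I pathway and in 8 further lists; thick ticks are list medians, the dashed line is the median of all tested genes at -0.09, and the red point, Raet1e, is the gene past the threshold. The class I-like, non-classical and class II points lie left of 0, while most loading partners lie right of it; with median-of-ratios scaling 1 class I-like and 3 non-classical genes turned positive.

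Of 20 tested transcription factors and interferon signalling genes none passed, and 3 had an unadjusted p under 0.05 (limma), Ifngr1 and Jak1 higher and Tyk2 lower in HO. At that unadjusted threshold 21.5% of all tested genes passed. Ifngr1, the ligand-binding chain of the interferon-gamma receptor, had 6.56, 7.58 and 7.54 FPKM in HO against 5.62, 4.64 and 3.92 FPKM in WT (log2 change 0.57 ± 0.14, SE, limma adjusted p = 0.0932). Jak1, the kinase bound to it, had 24.7, 32.9 and 31.6 FPKM in HO against 20.995, 21.1 and 22.8 FPKM in WT (limma adjusted p = 0.113). Neither gene's groups overlapped. Jak1 passed in 2 of 15 alternative fits, with array weights (adjusted p = 0.0394) and without HO replicate 1 (0.0496), and Ifngr1 in 1, with array weights (0.0487). Of 2 central genes of the pathway named outside the rule, after their values were seen, Irf1 (17.7 ± 2.17 FPKM in HO, 15.03 ± 3.81 FPKM in WT) overlapped between the groups, and Ifng itself was listed at 0 in all HO libraries and at no more than 0.0864 FPKM in WT. Of 11 tested interferon-gamma induced genes none passed, and 4 were positive and 7 negative. An unadjusted p under 0.05 (limma) was found for 4 of the 11, beside 21.5% of all tested genes. The GTPase gene Iigp1, also counted among interferon-stimulated genes, came nearest (170.9 ± 27.0 FPKM in HO, 106.1 ± 3.45 FPKM in WT, limma adjusted p = 0.0531). It passed in 3 of 15 alternative fits, with median-of-ratios scaling (adjusted p = 0.0419), with array weights (0.0246) and without HO replicate 1 (0.0398). Cxcl9, a T cell attracting chemokine, was at 2.30 ± 0.511 FPKM in HO and 4.17 ± 1.18 FPKM in WT (limma adjusted p = 0.127).

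Class II genes and markers of macrophages stood lower on average in HO beside the class I chains. All 7 tested class II presentation genes had negative log2 changes, with a median of -0.21 and none past the threshold or at an unadjusted p under 0.05 (limma), and H2-Aa, the alpha chain of I-A, was at 14.8 ± 5.33 FPKM in HO and 17.8 ± 1.61 FPKM in WT (limma adjusted p = 0.471). All 7 Kupffer cell and macrophage markers were negative too (median -0.31, and -0.22 with median-of-ratios scaling, still all 7). None was called, and 2 had an unadjusted p under 0.05 (limma), both lower in HO, beside 16.5% of all tested genes. The summed level of these markers was 43.9 to 55.3 FPKM in HO and 52.5 to 90.1 FPKM in WT, highest in WT replicate 1. Their most abundant gene, Clec4f, was at 21.6 ± 2.66 FPKM in HO and 26.9 ± 4.91 FPKM in WT (limma adjusted p = 0.301). The 4 pan-leukocyte markers summed to 9.72 to 13.0 FPKM in HO and 11.8 to 18.3 FPKM in WT, and the 5 stellate cell markers to 54.2 to 67.4 FPKM in HO and 77.6 to 94.4 FPKM in WT. Dcn held most of the stellate cell sum (mean 51.3 FPKM in HO and 72.1 FPKM in WT), and 4 of these markers were negative and 1 positive. The 9 T and NK cell markers summed to 1.73 to 2.51 FPKM in HO and 1.40 to 1.55 FPKM in WT, with no overlap. All of them but Cd3e and Ncr1 had a higher mean in HO. Their levels were low, and only 1 of the 9, Nkg7, could be tested and was not called. Cd4 had 1.1015, 0.248 and 0.612 FPKM in HO against 0.185, 0.177 and 0.453 FPKM in WT, with overlap. Nkg7 averaged 0.629 FPKM in HO and 0.457 FPKM in WT, and Cd3e averaged 0.153 FPKM in HO and 0.236 FPKM in WT. Ncr1 was listed at 0 in all HO libraries, and Cd8a stood at or under 0.0833 FPKM in all libraries. Of 5 neutrophil markers Ly6g was listed at 0 in all libraries, and S100a9 had 2.45, 3.28 and 3.75 FPKM in HO against 0.893, 0.491 and 1.75 FPKM in WT, with groups apart (log2 change 1.31, limma adjusted p = 0.0828). Summed Kupffer cell and macrophage, pan-leukocyte, neutrophil, dendritic cell, B and plasma cell, endothelial and cholangiocyte markers overlapped between the groups. The 6 hepatocyte markers summed to 40610 to 44330 FPKM in HO and 45650 to 49040 FPKM in WT, with 3 positive and 3 negative log2 changes. Alb held most of that sum (mean 27996 FPKM in HO and 32400 FPKM in WT, limma adjusted p = 0.385). Of the 6, groups were apart and higher in HO for 2, and apart and lower for 2. Over all tested genes these shares were 6.42% and 21.4%. The part of these cell types in the class I values was not tested.

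Across the 6 libraries the 10 members taken as 1 mean did not separate HO from WT. With 4 positive and 6 negative log2 changes, members of opposite sign offset each other in such a mean. It therefore cannot show whether single members differ between the groups. The mean of their standardised values was -0.25, -0.24 and 0.33 in HO against 0.15, -0.28 and 0.29 in WT, high in the replicate 3 libraries of both groups. Among the 5 genes of most like pattern, of 11560 averaging at least 1 FPKM, were Nmi, Sephs1, Phf6 and Cep57l1, with Pearson correlations of 0.985, 0.983, 0.981 and 0.9754 to that mean over 6 libraries. These correlations were the highest of many, share the scaling of each library with the members, and carry no test.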

How the data were processed

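Liver RNA was extracted with Trizol and made into directional libraries, per the labels' protocols. The authors deposited FPKM values for each gene and library. The build mm10 and the tools StringTie, HISAT2, HTSeq and DESeq2 appear in the submitters' processing notes, without versions, roles or strand handling. Columns were matched to samples by group and replicate number. GENCODE mouse release 21 held each of the 24034 gene identifiers and gave positions and transcripts, and RefSeq (GRCm38.p6) the promoters. Lncenc1 itself is not analysed here. No 2 libraries were identical.

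Since FPKM is a relative unit, abundant genes shift the rest. In each library 24.9% to 28.3% of the low values came out as whole reads (tolerance 0.02 reads), too few to recover counts, so no count model was used. The 13250 genes averaging at least 0.5 FPKM were fitted as log2(FPKM + 0.5) with limma 3.58.1 in R 4.3.3 (2 groups, eBayes with a trend, no block), two-sided, with Benjamini-Hochberg adjustment over all of them. That fit was tested on simulated data only with changes larger than that of any member, so recovery of smaller changes was not examined. Ratios and their exact permutation tests used Python 3.11.15 (pandas 2.3.3, numpy 2.4.6), and figures matplotlib 3.10.9.

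The members and lists were chosen with earlier results of these data known. Named were all 10 members, the genes of the 6 ratios, and, from each further list, genes past the threshold and otherwise up to 4 with the smallest p, H2-Q10 and H2-T23, the 5 genes of most like pattern (1 of them is not reported here), and from marker lists up to 2 genes of highest mean. H2-K2, C4a, Cyp21a1, Lnpep, Irf1, Ifng, Cd3e, Cd8a, Ncr1 and Ly6g were named outside that rule, after their values were seen. Alternatives were pseudocounts of 1 and 0.1, no filter or one at 1 FPKM, quantile normalization, scaling by the median of ratios, array weights, eBayes without a trend, a replicate block and leaving out each library.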

Additional observations from a re-analysis of the deposited data

How the results depend on the processing

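No member passed in 14 of the 15 alternative fits, and 1, Nlrc5, passed with array weights. H2-K1, H2-D1, B2m and Psmb10 stayed negative and Nlrc5, Tap1 and Tapbp positive in all 15. Median-of-ratios scaling turned Psmb8 to 0.0284 and Psmb9 to 0.0405, and quantile normalization turned Psmb9 to 0.0059. With 1 library left out Psmb8 ran from -0.229 to 0.0158 (without WT replicate 2 and 3) and Tap2 from -0.0594 to 0.2176 (likewise). The median of the members less that of all genes was 0.0196 and turned to -0.0239 with no filter; it ran from -0.0252 (without WT replicate 2) to 0.0536 (without HO replicate 2) with 1 library left out. Genes called over the whole table, 151 in all, numbered 100 with a pseudocount of 0.1, 40 with no filter, 77 without a trend, 941 with array weights and 25 with the replicate block, and 6 (without WT replicate 2) to 259 (without WT replicate 3) when 1 library was left out. Calls in the 8 further lists, 1 in all, numbered 2 with a pseudocount of 1, with median-of-ratios scaling and with a filter at 1 FPKM, 7 under array weights, 0 with no filter and with the replicate block, and 0 to 3 when 1 library was left out. Raet1e and H2-K2 lost their calls with no filter (adjusted p = 0.0526 and 0.0513) and with the replicate block (0.0613 and 0.0736). The cause of these shifts was not tested. Members with groups apart, 3 in all, numbered 3 to 5 when 1 library was left out, with 5 without HO replicate 3 or WT replicate 3.

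Same-numbered libraries deviated from their group means with correlations of 0.0661, -0.0281 and 0.0147, and not every library correlated best with its own number. With 3 libraries in each group this check cannot exclude that the samples were paired. The replicate block changed no call of a member. It cannot change the 6 ratio differences, because both groups hold the same replicate numbers. The ratio differences (log2, HO minus WT) ran from -0.0005 to 0.3104 for Psmb8/Psmb5, from 0.0468 to 0.1289 for Psmb9/Psmb6, from -0.1085 to 0.1279 for Psmb10/Psmb7, from 0.0738 to 0.4101 for Tap1/Tap2, from -0.0933 to 0.1974 for H2-K1/B2m and from -0.0285 to 0.1375 for H2-D1/B2m when 1 library was left out, and that of Psmb10/Psmb7 turned to 0.0272 with medians and 0.0014 with a pseudocount of 0.5. The number of libraries and the unknown counts behind FPKM limit the precision.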
